A study of Caenorhabditis elegans with 6 samples.

Results

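The genes described here encode short-chain dehydrogenases of Caenorhabditis elegans, taken as the table rows whose symbol starts with dhs-, dhrs- or stdh- and whose label and locus were the same in all 7 deposited tables. The gene dhs-28 was left out by the same rule. This gave 31 rows for 30 genes out of 14792 loci used, since dhs-25 has 2 rows at 1 locus. The gene dhs-20 was left out because the tables of single libraries give its row to F35B12.3, alone or joined with dhs-20. In the study, wild-type Bristol N2 worms kept at 20 °C were fed from the L4 larval stage on RNAi bacteria on plates with 6 mM IPTG, which switches on the double-stranded RNA, and their offspring were collected whole as adults. The control group received tag-208(RNAi), with 3 biological replicates, and the other group prx-5(RNAi), with 3. All 6 samples share strain, stage and feeding, and RNAi was aimed at a gene in each group, so either RNAi may lie behind a difference.

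Short-chain dehydrogenases use the nicotinamide cofactors NAD or NADP to oxidise alcohols or reduce carbonyl groups on fatty acids, steroids, retinoids, sugars and foreign compounds. Members sit in the cytosol, the endoplasmic reticulum, mitochondria, peroxisomes and on lipid droplets. The receptor PRX-5 brings most enzymes of the peroxisome matrix into the organelle. In mammals the DHRS4 protein, after which dhrs-4 is named, is a carbonyl and retinal reductase of peroxisomes.

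Of the targeted genes, prx-5 went against its label. RNA of prx-5 was 4.24 ± 0.650 FPKM in the control libraries and 19.9 ± 4.45 in those labelled prx-5 RNAi (SD, n = 3) and was higher in all 3 of the latter. Its log2 fold change was 1.98 ± 0.22 (SE, limma adjusted p = 0.00868), and it was called in all 17 alternatives. RNA of sorb-1, the present name of tag-208, was lower in all 3 controls, where it was targeted, than in any prx-5-labelled library, with 10.5 ± 3.11 and 18.03 ± 6.60 FPKM (SD, n = 3), and was not called (limma adjusted p = 0.232). The directions below are therefore those of the labels. FPKM are fragment counts scaled for transcript length and for the size of the library. Markers of the intestine were higher in the same libraries, with 11 of 12 called and 0 lower, a median of 1.41 in log2 fold change, and a summed level of 885 to 1324 FPKM in the controls and 2761 to 5897 in the prx-5-labelled libraries. Leaving out control replicate 3, or either of prx-5 replicates 2 and 3, left 0 intestine markers called, and leaving out control replicate 1 left 1. With the authors' constants (scaling factors estimated here from the authors' group values) or median-ratio scaling 5 were called, and with quantile normalization 6. Of 11 germline markers 0 were called, with sums of 3024 to 4348 FPKM in the controls and 2559.7 to 3951 in the prx-5-labelled libraries. Of 8 body muscle markers 0 were called, with sums of 6693 to 7257 and 3506 to 5111 FPKM. Of 7 hypodermis markers 1 was lower, and their median log2 fold change of 1.16 had the opposite sign to the change of their sum, 1038 to 1314 against 537 to 733 FPKM. Of 8 neuron markers 1 was higher, with sums of 336 to 417 and 403 to 527 FPKM. Of 4 sperm markers 0 were called, with sums of 50.8 to 198 and 29.8 to 63.5 FPKM. Among all tested loci 7.51% were called higher and 1.20% lower. As chosen, the lists held 12 germline, 8 hypodermis and 7 sperm markers, and those without a used row were left out. No marker with a used row was at 0 in all libraries. Whether the balance of tissues moved the values below was not tested, and in whole worms fewer cells of a type and less RNA per cell cannot be told apart.

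In the libraries labelled prx-5 RNAi, 4 short-chain dehydrogenase genes rose and 0 fell. The rises of dhs-18 and dhrs-4 were 11.1-fold and 6.46-fold by the group means, and those of dhs-9 and dhs-21 were 2.43-fold and 2.09-fold. The test was limma on log2(FPKM + 1) with Benjamini-Hochberg adjustment over the 13353 loci whose mean reached 1 FPKM, and a call is an adjusted p under 0.05. The 4 calls stand among 29 tested rows (13.8%), where 7.51% of all tested loci were called higher and 1.20% lower, 8.71% together. The median log2 fold change of the 29 rows was -0.05, against 0.04 for all tested loci, with 12 rows above 0 and 17 below. The median of the rows lay below that of all loci also with the authors' constants (-0.15 against -0.08), median-ratio scaling (-0.14 against -0.07) and quantile normalization (-0.24 against -0.10), and above it with the filter at 5 FPKM (-0.013 against -0.022).

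**Figure D1:**
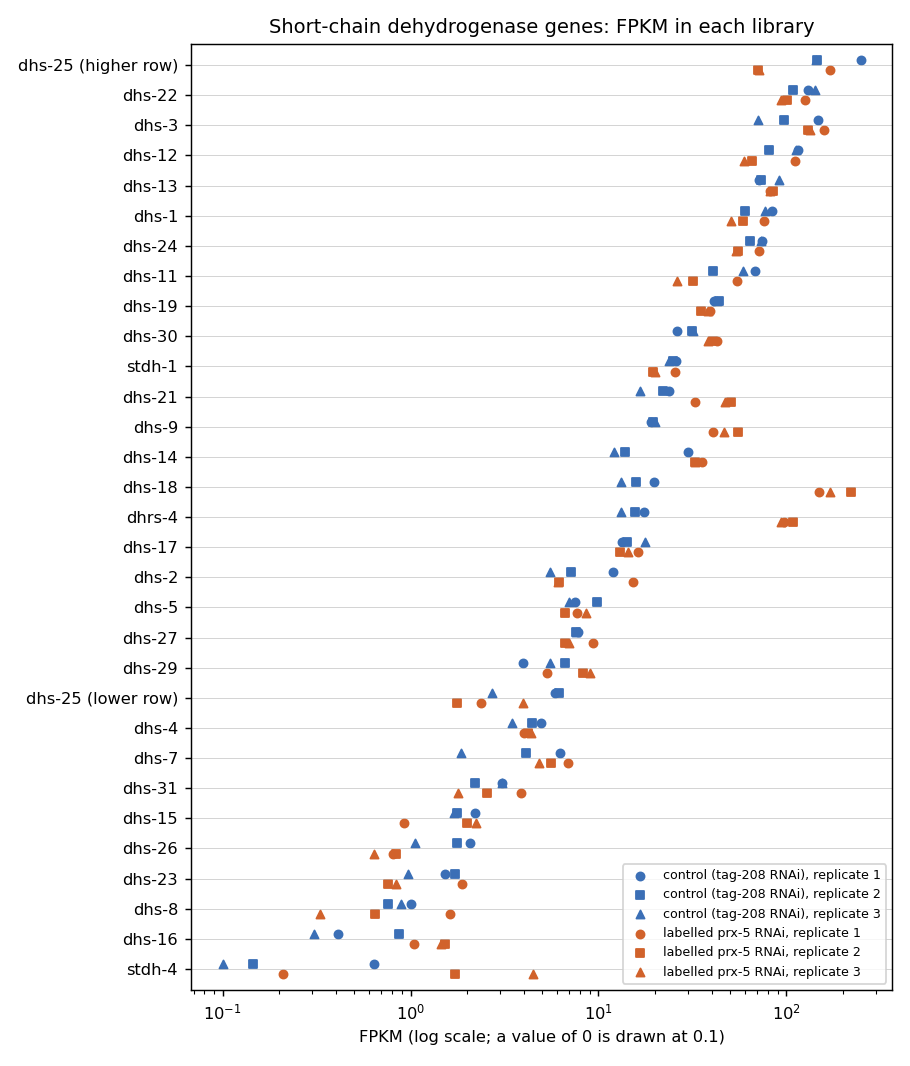
FPKM of each of the 31 short-chain dehydrogenase rows in each of the 6 libraries, on a log axis, with rows ordered by their control mean. Colours mark the groups and symbols the replicate numbers, and a value of 0 is drawn at 0.1. In dhs-18 and dhrs-4 the prx-5-labelled values (149.8 to 222 and 93.4 to 109 FPKM) lie far to the right of the control values (13.2 to 19.9 and 13.2 to 17.4 FPKM), while most other rows overlap.

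The largest rise was that of dhs-18 (WBGene00000981). Its locus lies on chromosome V from 11044236 to 11046870 and covers the whole gene, which the WBcel235 annotation places on the minus strand from 11045705 to 11046833. It had 19.9, 15.8 and 13.2 FPKM in control replicates 1, 2 and 3, and 149.8, 222 and 171 FPKM in prx-5-labelled replicates 1, 2 and 3. The lowest prx-5-labelled value was thus far above the highest control value. The means were 16.3 ± 3.38 and 181 ± 37.3 FPKM (SD, n = 3), with a log2 fold change of 3.40 ± 0.21 (SE, limma adjusted p = 0.00303). By size of rise it ranked 36 among the 13353 tested loci.

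The reductase gene dhrs-4 (WBGene00010063, chromosome V, 12922607 to 12924237, plus strand) also rose. Its locus covers the whole gene and holds no exon of another coding gene. The controls had 17.4, 15.7 and 13.2 FPKM and the prx-5-labelled libraries 97.0, 109 and 93.4 FPKM. The lowest prx-5-labelled value was above the highest control value. The means were 15.4 ± 2.16 and 99.7 ± 8.04 FPKM (SD, n = 3), a log2 fold change of 2.62 ± 0.16 (SE, limma adjusted p = 0.00303). It ranked 2 by p among the tested loci, and dhs-18 ranked 3. Both calls held in all 17 alternatives, with log2 fold changes of 3.24 to 3.54 for dhs-18 and 2.49 to 2.71 for dhrs-4.

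The rise of dhs-9 (WBGene00000973, chromosome III, 5364449 to 5368126, minus strand) was smaller. The control values of 19.1, 19.5 and 20.1 FPKM lay close together, and the prx-5-labelled libraries had 40.9, 55.1 and 46.7 FPKM. The groups did not overlap. The means were 19.6 ± 0.505 and 47.6 ± 7.10 FPKM (SD, n = 3), a log2 fold change of 1.23 ± 0.16 (SE, limma adjusted p = 0.0114). In limma fits with 1 library left out, the call was lost without control replicate 3 (adjusted p = 0.0611), and with prx-5 replicate 2 (0.0533) or 3 (0.0520) left out.

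The gene dhs-21 (WBGene00000984) encodes the dicarbonyl and L-xylulose reductase of the worm, an enzyme of sugar metabolism. It was measured at a locus on chromosome V from 12728633 to 12733606, and the gene itself lies on the minus strand from 12731767 to 12733645. The controls had 23.9, 22.1 and 16.6 FPKM and the prx-5-labelled libraries 32.5, 50.7 and 47.4 FPKM. The groups did not overlap, with prx-5 replicate 1 the closest to the controls. The means were 20.8 ± 3.80 and 43.5 ± 9.67 FPKM (SD, n = 3), a log2 fold change of 1.02 ± 0.22 (SE, limma adjusted p = 0.0385). Of the 6 fits that leave out 1 library, only that without prx-5 replicate 1 kept the call. The adjusted p was 0.0816, 0.0616 and 0.133 without control replicates 1, 2 and 3, and 0.149 and 0.135 with prx-5 replicates 2 and 3 left out. The call was also lost with the authors' constants (0.0825), median-ratio scaling (0.0836) and quantile normalization (0.0745). The log2 fold changes of the intestine markers ran from 0.55 (spl-1) to 2.53 ± 0.38 (asp-1, SE), with a median of 1.41. Those of dhs-9 and dhs-21 were below this median, and those of dhs-18 and dhrs-4 above it, with dhrs-4 close to asp-1. Whether intestine content moved these genes was not tested.

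**Figure D2:**
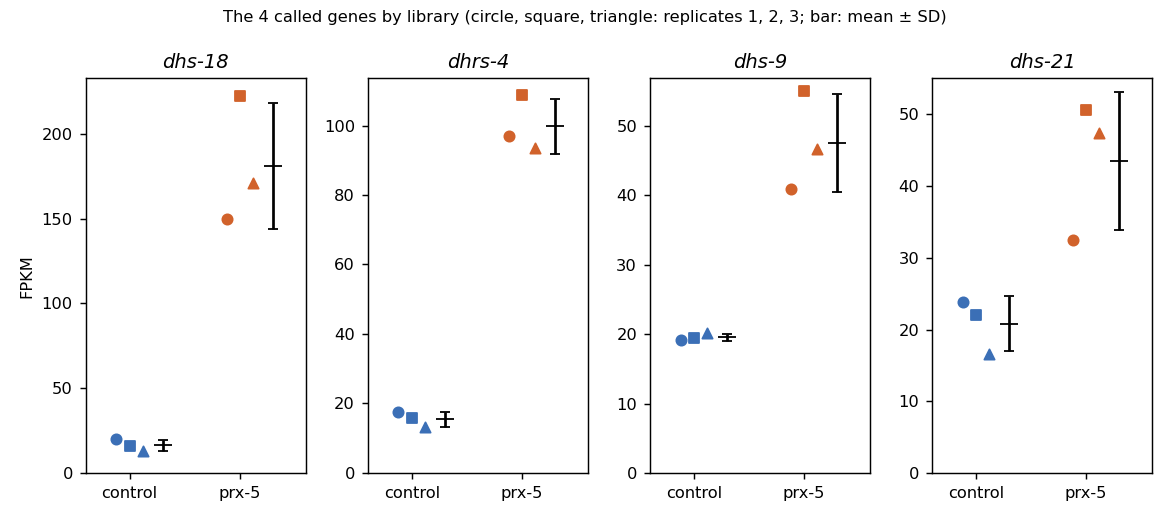
FPKM of dhs-18, dhrs-4, dhs-9 and dhs-21 in each library, by group, each panel with its own axis from 0. Points are libraries, and the bars beside them give the mean and SD of 3. In each of the 4 panels the 3 prx-5-labelled points lie above the 3 control points.

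In the authors' deposited table, dhs-18, dhrs-4 and dhs-9 were also significant, with log2 fold changes of 3.34, 2.55 and 1.15 (q = 0.00101 each), while dhs-21 was not (log2 0.93, q = 0.183). The authors' deposited table called 3 of the 29 rows higher and 2 lower, where it called 9.52% and 4.85% of the tested loci. The 2 lower ones were dhs-25 (log2 -0.94, q = 0.00101) and dhs-11 (log2 -0.72, q = 0.0345), neither of which passed limma. For dhs-20, the authors' deposited table lists 29.1 and 48.5 FPKM (log2 0.74, q = 0.0309), and it was not tested here. Both comparisons rest on the same 6 libraries.

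Below the threshold, the 4 rows with the smallest p were dhs-30, dhs-14, dhs-26 and the higher row of dhs-25. The gene dhs-30 had 26.1, 31.5 and 31.7 FPKM in the controls and 42.9, 40.8 and 38.3 in the prx-5-labelled libraries. Its groups did not overlap, with a log2 fold change of 0.44 ± 0.15 (SE) that was not called (limma adjusted p = 0.130). The gene dhs-14 had 29.98, 13.9 and 12.05 FPKM in the controls and 35.5, 32.7 and 32.5 in the prx-5-labelled libraries. Control replicate 1 stood near the prx-5-labelled values, and the log2 fold change was 0.92 ± 0.32 (SE, limma adjusted p = 0.143). Without control replicate 1 it was 1.31 ± 0.19 (limma adjusted p = 0.0367). The gene dhs-26 was low, with 2.06, 1.76 and 1.06 FPKM in the controls and 0.802, 0.836 and 0.636 in the prx-5-labelled libraries. The groups did not overlap, with a log2 fold change of -0.56 ± 0.25 (SE, limma adjusted p = 0.251).

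The row with the highest control level was the higher row of dhs-25, on the X chromosome. It had 248, 145 and 143 FPKM in the controls and 169.9, 70.8 and 71.2 in the prx-5-labelled libraries. Prx-5 replicate 1 lay above 2 of the 3 control values, so the groups overlapped. The means were 179 ± 60.1 and 104 ± 57.1 FPKM (SD, n = 3), a log2 fold change of -0.86 ± 0.39 (SE, limma adjusted p = 0.257). Without prx-5 replicate 1 the log2 fold change was -1.27 ± 0.27 (limma adjusted p = 0.0306). The lower row of dhs-25, at the same locus, had 4.93 ± 1.93 and 2.70 ± 1.14 FPKM (SD, n = 3; log2 -0.66 ± 0.35, limma adjusted p = 0.321). The gene dhs-11 had 68.1, 40.9 and 58.7 FPKM in the controls and 54.6, 31.8 and 26.2 in the prx-5-labelled libraries. These groups overlapped as well (log2 -0.60 ± 0.31, limma adjusted p = 0.311).

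**Figure D3:**
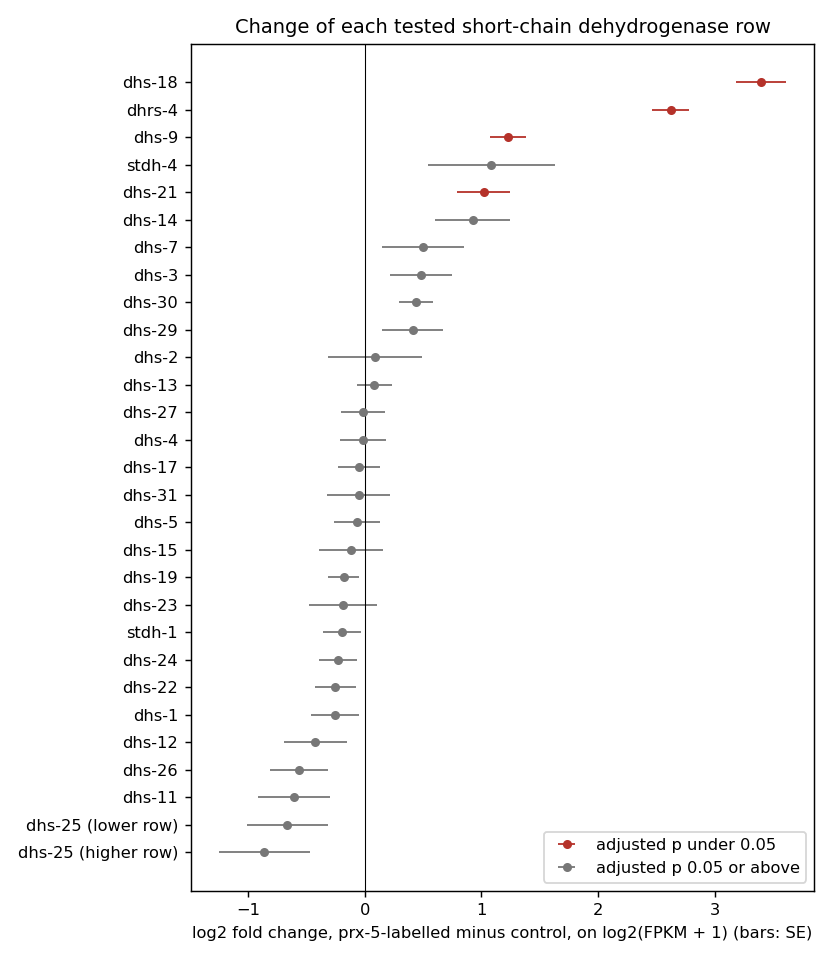
Log2 fold change, prx-5-labelled minus control on the log2(FPKM + 1) scale, of the 29 tested rows, with bars for the SE of the limma fit. The 4 called rows, dhs-18, dhrs-4, dhs-9 and dhs-21, run from 3.40 to 1.02, and the 25 uncalled rows lie between -0.86 and 1.09.

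Genes of lipid storage and steroid synthesis within the family were not called. The protein of dhs-3 is a main protein of lipid droplets in the worm intestine. Its RNA stood at 146.9, 96.8 and 70.5 FPKM in the controls and 159, 130.3 and 133 in the prx-5-labelled libraries. Control replicate 1 exceeded prx-5 replicates 2 and 3, and the log2 fold change was 0.48 ± 0.27 (SE, limma adjusted p = 0.353). The product of dhs-16 takes part in making the steroid hormone dafachronic acid, the ligand of the nuclear receptor DAF-12. It had 0.412, 0.865 and 0.307 FPKM in the controls and 1.04, 1.53 and 1.46 in the prx-5-labelled libraries, under the filter on low values. The groups did not overlap, and in the fit with no filter its log2 fold change was 0.63 ± 0.24 (SE, limma adjusted p = 0.188). The gene C10F3.7, on the opposite strand at the same locus, had 0.181 ± 0.225 and 2.10 ± 1.39 FPKM (SD, n = 3; limma adjusted p = 0.0960). Of the 2 rows named as steroid dehydrogenases, stdh-1 had 24.8 ± 1.098 and 21.7 ± 3.37 FPKM (SD, n = 3; log2 -0.19 ± 0.16, limma adjusted p = 0.534). The other, stdh-4, was listed at 0.643, 0.146 and 0 FPKM in the controls and at 0.209, 1.72 and 4.47 in the prx-5-labelled libraries. Its prx-5-labelled values spread widely and overlapped the controls (log2 1.09 ± 0.55, limma adjusted p = 0.303). Its locus covers 18.3% of the annotated gene. Its control mean of 0.263 FPKM was under the filter of 1 FPKM, so it was tested only through its prx-5-labelled values. It was called higher without prx-5 replicate 1, the lowest library of that group, and leaving that library out widens the difference.

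Among the remaining tested rows, dhs-22 was the next most abundant after dhs-25 in the controls, with 131, 109 and 142 FPKM there and 125, 101 and 94.02 in the prx-5-labelled libraries. Its groups overlapped (log2 -0.25 ± 0.18, limma adjusted p = 0.460). The locus of dhs-22 also holds exons of 4 other coding genes, so its level may include their reads. The gene dhs-19 had 41.1, 43.8 and 42.9 FPKM in the controls and 39.2, 35.1 and 38.5 in the prx-5-labelled libraries, all 3 below the controls (log2 -0.18 ± 0.13, limma adjusted p = 0.485). The 16 tested rows not given library by library above, among them stdh-1 and the lower row of dhs-25, had group means of 1.16 to 103 FPKM and overlapped between the groups in all 16, with log2 fold changes of -0.66 to 0.50 and limma adjusted p of 0.321 to 0.976. The highest of these means was that of dhs-12, whose locus covers 27.8% of the gene and holds exons of 3 other coding genes. In all, the groups did not overlap in 8 of the 29 tested rows, 6 with prx-5-labelled values above (20.7%) and 2 below (6.90%). Of all tested loci 21.2% did so above and 5.80% below, 27.0% together, so these shares were near the background. The gene dhs-8, the other row under the filter, had 0.883 ± 0.122 and 0.869 ± 0.677 FPKM (SD, n = 3). Its locus covers 32.8% of the gene.

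The order of levels within the family differed between the groups. In the control mean dhs-18 and dhrs-4 ranked 15 and 16 of the 31 rows, and in the prx-5-labelled mean dhs-18 ranked 1 and dhrs-4 ranked 5. The summed FPKM of all 31 rows was 1214, 927 and 1001 in the controls and 1390.2, 1226 and 1129 in the prx-5-labelled libraries, so the ranges overlapped. Within that sum dhs-18 made up 1.64%, 1.70% and 1.32% in the controls and 10.8%, 18.1% and 15.2% in the prx-5-labelled libraries. The share of the higher row of dhs-25 was 20.5%, 15.7% and 14.3% in the controls and 12.2%, 5.78% and 6.30% in the prx-5-labelled libraries. Without dhs-18 and dhrs-4 the sum was 1177, 896 and 975 FPKM in the controls and 1143, 894 and 865 in the prx-5-labelled libraries, again overlapping.

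**Figure D4:**
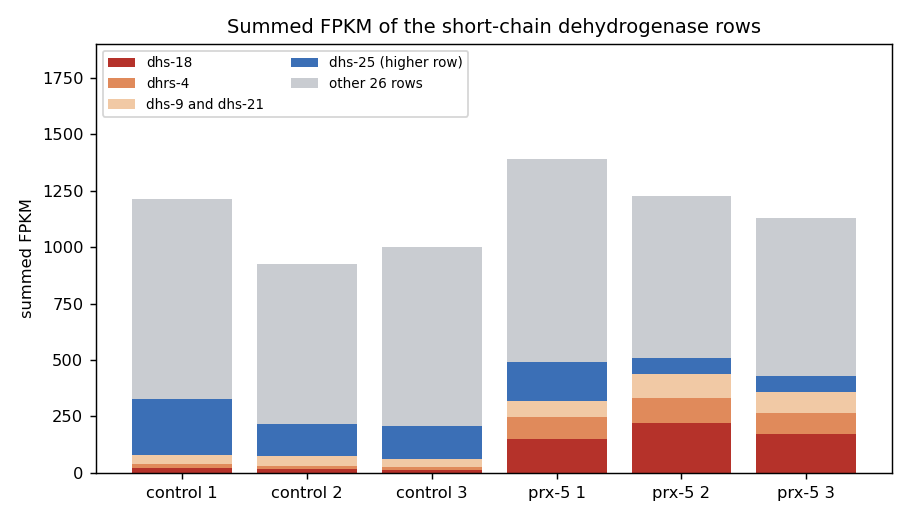
Summed FPKM of the 31 short-chain dehydrogenase rows in each library, stacked by gene, with the axis from 0. The part of dhs-18 grows from between 13.2 and 19.9 FPKM in the controls to between 149.8 and 222 in the prx-5-labelled libraries.

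Within the groups many members were highest in replicate 1. In 12 of the 29 tested rows (41.4%) replicate 1 was the highest library of both groups, where 17.0% of all tested loci showed this. The 12 were dhs-1, dhs-2, dhs-3, dhs-7, dhs-11, dhs-12, dhs-14, dhs-24, dhs-27, dhs-31, stdh-1 and the higher row of dhs-25. For dhs-2 the values were 11.96, 7.16 and 5.50 FPKM in the controls and 15.3, 6.14 and 6.10 in the prx-5-labelled libraries, which shows a larger spread within the groups than between their means (log2 0.09 ± 0.40, limma adjusted p = 0.921). None of the 4 called genes was highest in replicate 1 of both groups. The labels give the replicate numbers no meaning across the groups.

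Of the 30 genes 14 lie on chromosome V, 5 on X, 4 on I, 3 on II, 2 on III and 2 on IV. The locus of 17 of the 31 rows also holds exons of another coding gene, and the use of strand in the counting was not given in the sources used here, so reads of overlapping genes may not be separable. For 12 members another gene has its own row at the same locus, and the annotation puts each of these on the opposite strand. Other coding genes lie on the same strand as the member at the loci of dhs-22 (pas-1, rpoa-12 and rrsr-1) and dhs-24 (tmed-4). The locus of dhs-18 also holds C45B11.6, which had 1.78 ± 0.562 and 2.94 ± 1.07 FPKM (SD, n = 3; log2 0.49 ± 0.28, limma adjusted p = 0.372). The locus of dhs-21 also holds R11D1.10, which had 35.1 ± 2.20 and 29.4 ± 3.90 FPKM (SD, n = 3; log2 -0.25 ± 0.15, limma adjusted p = 0.393). It holds 651 bp of exons of mrpl-49 as well, which has no used row at that locus to compare. The locus of dhs-9 holds 77 bp of exons of Y32H12A.1. Of the 12 partner rows 2 were called higher and 0 lower, where 7.51% and 1.20% of all tested loci were. Both called partners lie beside a dehydrogenase that was not called. The C-type lectin gene clec-205 went from 1.69 ± 0.217 to 11.5 ± 3.24 FPKM (SD, n = 3; log2 2.19 ± 0.24, limma adjusted p = 0.00868), while dhs-13 at that locus had 78.9 ± 11.2 and 83.05 ± 1.53 (log2 0.08 ± 0.15, limma adjusted p = 0.782). The gene T05F1.9 went from 0.278 ± 0.115 to 3.22 ± 0.0611 FPKM (SD, n = 3; log2 1.73 ± 0.22, limma adjusted p = 0.0107), while dhs-4 had 4.27 ± 0.748 and 4.19 ± 0.182 (log2 -0.01 ± 0.20, limma adjusted p = 0.976). The control mean of T05F1.9 was under the filter of 1 FPKM, so it was tested only through its prx-5-labelled values. With no filter it was also called (limma adjusted p = 0.0102). The call of clec-205 was lost without control replicate 3. That of T05F1.9 was lost without that library, or with either of prx-5 replicates 2 and 3 left out.

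**Figure D5:**
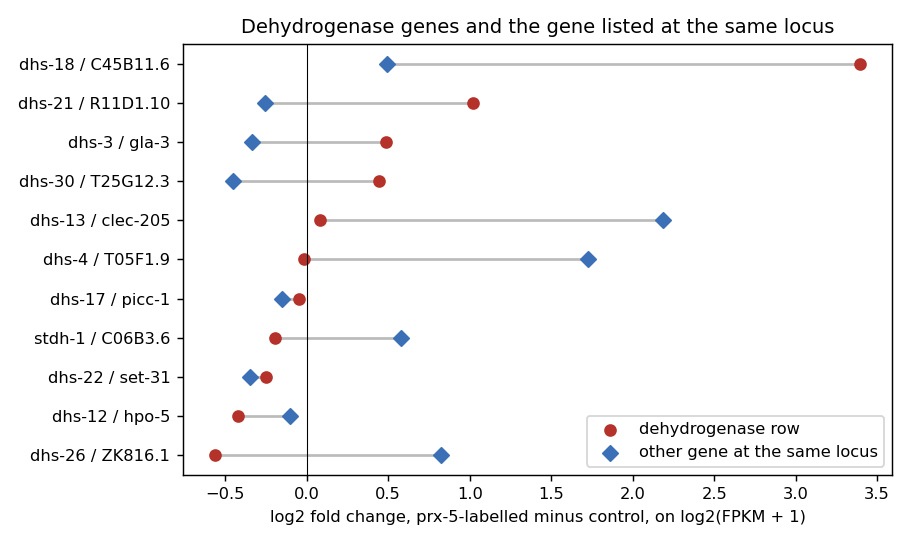
Log2 fold changes (prx-5-labelled minus control, log2(FPKM + 1) scale) of 11 tested dehydrogenase rows (circles) and of the gene listed at the same locus (diamonds), joined by a line. The circles of dhs-18 (3.40) and dhs-21 (1.02) lie to the right of their partners (0.49 and -0.25), and the circles of dhs-13 (0.08) and dhs-4 (-0.01) to the left of theirs (2.19 and 1.73).

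Neighbouring loci of the 4 called genes, taken as the next 2 on each side, gave 1 call among 16, a higher one. Among all tested loci 7.51% were called higher and 1.20% lower, so this count was near the background. The called neighbour was the aspartyl protease gene asp-10, at 8435 bp from the locus of dhs-21, which had 392 ± 65.2 and 3061 ± 1606 FPKM (SD, n = 3; log2 2.79 ± 0.46, limma adjusted p = 0.0181). Its call was lost without control replicate 1 or 3, and with either of prx-5 replicates 2 and 3 left out. Near dhrs-4, at 492 bp, the lipase gene lipl-1 had 0.708 ± 0.568 and 9.54 ± 10.96 FPKM (SD, n = 3) and was not called (limma adjusted p = 0.104). Near dhs-18, at 271 bp, C45B11.2 had 0.398 ± 0.400 and 2.54 ± 1.58 FPKM (SD, n = 3; limma adjusted p = 0.107). The adjacent family members dhs-14 and dhs-15 lie 3164 bp apart, and dhs-15 had 1.89 ± 0.279 and 1.72 ± 0.696 FPKM (SD, n = 3; log2 -0.12 ± 0.27, limma adjusted p = 0.825).

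Genes of the superfamily under other names and genes of related pathways were looked at beside the members. Among all tested loci 7.51% were called higher and 1.20% lower, with a median log2 fold change of 0.04. Of 6 tested genes of the superfamily with other names, 3 rose and 0 fell, and the median of their log2 fold changes was 0.49. The dienoyl-CoA reductase gene decr-1.1, listed as F53C11.3, had 78.3, 67.8 and 61.9 FPKM in the controls and 207.7, 269 and 227 in the prx-5-labelled libraries. Its log2 fold change was 1.74 ± 0.17 (SE, limma adjusted p = 0.00584), and the call held in all 17 alternatives. The sugar nucleotide enzyme genes ger-1 and bre-1 rose by 0.84 ± 0.18 and 0.98 ± 0.23 on the log2 scale (limma adjusted p = 0.0383 and 0.0473). Each kept its call, among the fits that leave out 1 library, only without prx-5 replicate 1, and both lost it with the authors' constants, median-ratio scaling and quantile normalization. The call of ger-1 was also lost with a replicate block, and that of bre-1 with no filter and with no variance trend. The essential gene let-767, for a ketoacyl-CoA and steroid reductase, had 163 ± 12.1 and 179 ± 14.9 FPKM (SD, n = 3; log2 0.13 ± 0.15, limma adjusted p = 0.636).

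Of 6 tested genes of the dafachronic acid pathway, 1 rose and 0 fell, with a median of 0.43. This was the sterol oxygenase gene daf-36, with 11.26 ± 3.92 and 29.5 ± 2.18 FPKM (SD, n = 3; log2 1.36 ± 0.25, limma adjusted p = 0.0236). Of 7 tested lipid droplet genes, 2 rose and 0 fell, with a median of 0.50. These were acs-22, for an acyl-CoA synthetase of the fatty acid transport protein type, at 18.8 ± 8.46 and 83.7 ± 2.69 FPKM (SD, n = 3; log2 2.18 ± 0.28, limma adjusted p = 0.0115), and dgat-2, for an enzyme of triglyceride synthesis, at 24.9 ± 5.53 and 117 ± 63.1 FPKM (log2 2.03 ± 0.45, limma adjusted p = 0.0379). Of 12 tested alcohol and aldehyde dehydrogenase genes, 3 rose and 1 fell, with a median of 0.12. As chosen, the lists held 12 superfamily genes, 9 of the dafachronic acid pathway, 9 of lipid droplets and 16 alcohol and aldehyde dehydrogenase genes. Those not tested were members described above, had no used row or were under the filter. Each of these lists holds few genes, and the shares over all tested loci were 7.51% higher and 1.20% lower. The alcohol dehydrogenase gene sodh-1 had 40.6 ± 11.9 and 173 ± 26.7 FPKM (SD, n = 3; log2 2.10 ± 0.25, limma adjusted p = 0.0104) and was called in all 17 alternatives. The aldehyde dehydrogenase genes alh-13 and alh-5 rose by 1.67 ± 0.26 and 1.098 ± 0.20 (limma adjusted p = 0.0156 and 0.0247), and alh-9, named after its values were seen, fell by 0.79 on the log2 scale (limma adjusted p = 0.0403). The calls of daf-36 and alh-13 were lost without control replicate 3 and with either of prx-5 replicates 2 and 3 left out, and that of acs-22 without control replicate 3 or prx-5 replicate 2. Those of dgat-2, alh-5 and alh-9 were kept, among the fits that leave out 1 library, only without prx-5 replicate 1, and dgat-2 and alh-5 also lost theirs with the authors' constants, median-ratio scaling and quantile normalization, and alh-9 with no variance trend.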

How the data were processed

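RNA-seq of whole adult worms gave 6 libraries, 3 per group, labelled biological replicates. Per the file headers, the authors deposited FPKM for each library and group, and in the comparison table the score of their test, its p-value and q-value, and a log2 fold change. The submitters' processing notes name CASAVA, Bowtie, Cufflinks and Cuffdiff; versions, genome build and use of strand are not given in the sources used here. The 15796 loci were joined by position. Left out were 913 whose labels differed between tables and 91 whose group value was not recovered within 2% from the libraries and 1 constant each. These constants, called the authors' constants, were estimated here by a fit of the authors' group values on the library values. Values with status FAIL or HIDATA (33) were set to missing. Coordinates were set beside the WBcel235 annotation (Ensembl), and starts were taken as counted from 0, since 411 then equal an annotated transcript start, against 227. Depth in reads is unknown. From the steps of low values it was estimated at 0.768 to 1.26 relative to control replicate 1, and no counting interval is given.

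The tests used limma 3.58.1 (R 4.3.3; variance trend, no block, two-sided) on log2(FPKM + 1), which understates changes of low genes, and the script was tested on simulated data. Fold changes are prx-5-labelled minus control. The members, lists and tests were chosen with earlier results of these data known. Values of every library are given for called members, the 4 uncalled with the smallest p and the 3 most abundant, and up to 3 members per list are named. The genes dhs-2, dhs-4, dhs-8, dhs-11, dhs-12, dhs-13, dhs-15, dhs-16, dhs-19, dhs-20, stdh-1 and stdh-4 were named after their values were seen. So were let-767 and the partner and neighbour genes. C-terminal targeting signals of the proteins were not analysed here. Alternatives were pseudocounts of 0.1 and 0.5, no filter or a filter at 5 FPKM, quantile normalization, median-ratio scaling, the authors' constants, no variance trend, sample weights, a replicate block, only loci that cover 50% or more of the gene, and leaving out each library.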

Additional observations from a re-analysis of the deposited data

How the results depend on the processing

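The count of 4 called short-chain dehydrogenase rows became 10 with sample weights (6 higher and 4 lower), and between 2 (without control replicate 3, and with either of prx-5 replicates 2 and 3 left out) and 6 (without prx-5 replicate 1) when 1 library was left out. It was 3 to 5 in the other alternatives, and dhs-18 and dhrs-4 were among the called rows in all 17. None of the 10 members followed through the alternatives changed sign. These were the 4 called, the 4 uncalled with the smallest p and the 3 most abundant, the higher row of dhs-25 being in both. A change of filter, of the share of the gene covered, of the variance trend or of the block left their log2 fold changes the same. No sign could change in those fits. Rows nearest 0, such as dhs-4 (-0.01), were not followed. The count of all called loci, 1163 (86.2% higher), was 710 with the authors' constants (73.2% higher), 698 with median-ratio scaling (73.4%), 770 with quantile normalization (69.0%) and 4107 with sample weights (65.7%). Without 1 library it ranged from 78 (without control replicate 3) to 1848 (without prx-5 replicate 1). The authors' constants moved the median log2 fold change of all loci from 0.04 to -0.08. The cause of these shifts was not tested. With the replicate block 5 rows were called, the added one being the higher row of dhs-25, lower, and 1253 loci in all. Deviations of same-numbered libraries from their group means correlated at 0.29, 0.23 and -0.12 over 13340 loci, so the numbers were not taken to pair the samples, and not every library correlated best with its own number. The planned split by protein targeting signal was not run. With 3 libraries a group and depth unknown, differences below the spread of these libraries were not detectable. Nothing in the labels says what separates replicates beyond the word biological.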
